A study of Mus musculus with 18 samples.

Results

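In mouse liver, 10 heat shock protein genes were followed across 3 diets: the HSP70 genes Hspa1b and Hspa8, the HSP110 gene Hsph1, the HSP90 genes Hsp90aa1 and Hsp90ab1, the J-domain genes Dnaja1 and Dnajb1, the small heat shock gene Hspb1, and the mitochondrial chaperonin genes Hspd1 and Hspe1. Members were all probe sets of the Mouse430_2 array that the platform annotation paired with exactly 1 of these 10 symbols. This gave 24 probe sets for 9 of the 10 genes, of 18193 genes that had a probe set paired with 1 symbol. Hsp90ab1 had no probe set paired with it alone and was not analysed here. Of the 24 probe sets, 23 were bright enough to be tested, and the dim one was 1441827_x_at of Hsp90aa1.

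Heat shock proteins are chaperones that hold unfolded proteins and help them reach or regain their folded state. In the cytosol, HSP70 works in cycles with J-domain partners, which deliver clients, and with HSP110, which exchanges its nucleotide, while HSP90 finishes the folding of kinases and steroid receptors. In mitochondria, the HSP60 barrel encoded by Hspd1 works with the lid encoded by Hspe1. Many of the cytosolic genes are switched on together when heat shock factor 1 binds repeated GAA and TTC units in their promoters.

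The mice were male C57BL/6J animals obtained at 5 weeks of age and fed for 20 weeks, and each array held liver RNA of 1 mouse. The control group received the purified diet AIN93G, the Western group a diet high in fat, cholesterol and sucrose, and the quercetin group that Western diet with 0.05% quercetin, a plant flavonol. All groups lived with the dark period during daytime hours and in cages of 3 mice, and all were killed under pentobarbital anesthesia. AIN93G with quercetin was not analysed here. Sample titles carry the numbers 1 to 6 in each group. The labels do not say whether numbers 1 to 3 and 4 to 6 stand for cages, days or something else, so any such source and the number cannot be told apart.

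The 18 arrays had medians from 12.7 to 23.1 and trimmed means from 66.7 to 101.8 as deposited, so they were brought to a common distribution (quantile normalization) and read as log2(signal + 16), the level used below. Control arrays 4 and 5 differed from each other by an SD of 0.0596 on the log2 scale, against 0.164 for the next closest of 153 pairs of arrays, and were averaged and counted as 1 sample, control 4-5. This left 5 control, 6 Western and 6 quercetin samples, with 9 samples in numbers 1 to 3 and 8 in numbers 4 to 6. The array scale is relative, so levels of different probe sets are not compared. All 10 hepatocyte markers lay at or above the 98.3 percentile of probe set means, as the liver label asks. RNA came from whole tissue, so a change in the number of cells of a type and a change in RNA per cell cannot be told apart.

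Promoter stretches of 6 members are shown first because they hold a sequence element that the choice of members did not use. RefSeq's windows (GRCm38.p6) reach from 250 bases before to 50 bases after a gene's start, and 7 of the 10 members had one, while Hspa8, Hsp90aa1 and Hsp90ab1 had none. On either strand, the heat shock element was searched as 2 units (GAANNTTC or TTCNNGAA) and as 3 units, in which GAANNTTC goes on with NNGAA or TTCNNGAA with NNTTC, so that every longer match holds a shorter one. The 3-unit form stood in the windows of 3 of the 7 members, Hsph1, Hspd1 and Hspe1, and in 0.662% of the 27025 genes with a window, counted in the same way (any window of a gene). The 2-unit form stood in 6 of the 7, all but Dnajb1, and in 17% of all genes (15.1% of all 32851 windows). The 6 stretches below are 30 bases each, written 5′ to 3′ along the gene's strand with the matched letters in capitals. They lie at chr17:34959324-34959353 (minus strand) for Hspa1b, chr5:135887801-135887830 (plus) for Hspb1, chr5:149636279-149636308 (minus) for Hsph1, chr4:40722333-40722362 (plus) for Dnaja1, and chr1:55088053-55088082 for both Hspd1 (minus) and Hspe1 (plus).
Hspa1b: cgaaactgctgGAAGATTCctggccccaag
Hspb1: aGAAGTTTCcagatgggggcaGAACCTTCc
Hsph1: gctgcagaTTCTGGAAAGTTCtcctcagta
Dnaja1: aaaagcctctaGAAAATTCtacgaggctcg
Hspd1: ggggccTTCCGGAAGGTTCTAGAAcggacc
Hspe1: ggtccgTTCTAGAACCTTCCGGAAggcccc
Hspd1 and Hspe1 are transcribed away from each other, and their lines are the 2 strands of one and the same stretch, an unbroken run of 18 bases of units. Hspb1 has a pair of separate 2-unit matches, and Hspa1b a single one that begins at position -104 from its start. The 3-unit match of Hsph1 begins after the gene's start, at position 15 or 36 depending on the window. Over the 250 bases before the start, Hspa1b and its neighbour Hspa1a, which encodes nearly the same HSP70 protein, had 247 bases in common (98.8%). A match is a description of the letters and not evidence of binding.

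Hspb1, the small heat shock protein HSP27 that keeps unfolding proteins from clumping and binds actin, was the member that rose on the Western diet, and both of its probe sets showed it. On the level scale, 1422943_a_at stood at 8.43 in control 1, 8.11 in control 2, 8.66 in control 3, 7.99 in control 4-5 and 8.43 in control 6. In the Western group it ran from 9.71 to 10.29 with a median of 10.07, and in the quercetin group from 9.29 to 10.63 with a median of 9.69. Every Western and every quercetin sample lay above every control sample. As deposited, before the normalization used here, its intensity ran from 219 to 328 on the control arrays and from 982 to 1207 on the Western arrays. The log2 difference between Western and control was 1.72 ± 0.18 (SE; n = 6 and 5), a 3.30-fold rise with an adjusted p of 4.28e-05 by limma, and between quercetin and control it was 1.44 ± 0.18 (n = 6 and 5), with an adjusted p of 0.000301.

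The second Hspb1 probe set, 1425964_x_at, showed the same separation. Its level was 7.76 in control 1, 7.47 in control 2, 7.56 in control 3, 6.89 in control 4-5 and 7.54 in control 6. It ran from 9.37 to 9.73 in the Western group, with a median of 9.56, and from 8.81 to 10.21 in the quercetin group, with a median of 9.19. The groups fed the Western diet again did not overlap the controls, and control 4-5 was the lowest sample. The rise over control was 2.12 ± 0.19 (log2, SE) in the Western group, a 4.35-fold change with an adjusted p of 7.4e-06 by limma, and 1.83 ± 0.19 in the quercetin group, with an adjusted p of 8.43e-05. By p-value 1425964_x_at took place 4 and 1422943_a_at place 11 among 33778 probe sets in Western against control. Within numbers 1 to 3 alone the Western rises of 1422943_a_at and 1425964_x_at were 1.74 and 2.06. Within numbers 4 to 6 they were 1.74 and 2.26 in the same order, and all 4 passed the test. Quercetin minus control within numbers 4 to 6 was 1.29 for 1422943_a_at (adjusted p = 0.0637) and 1.80 for 1425964_x_at (adjusted p = 0.0333).

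**Figure D1:**
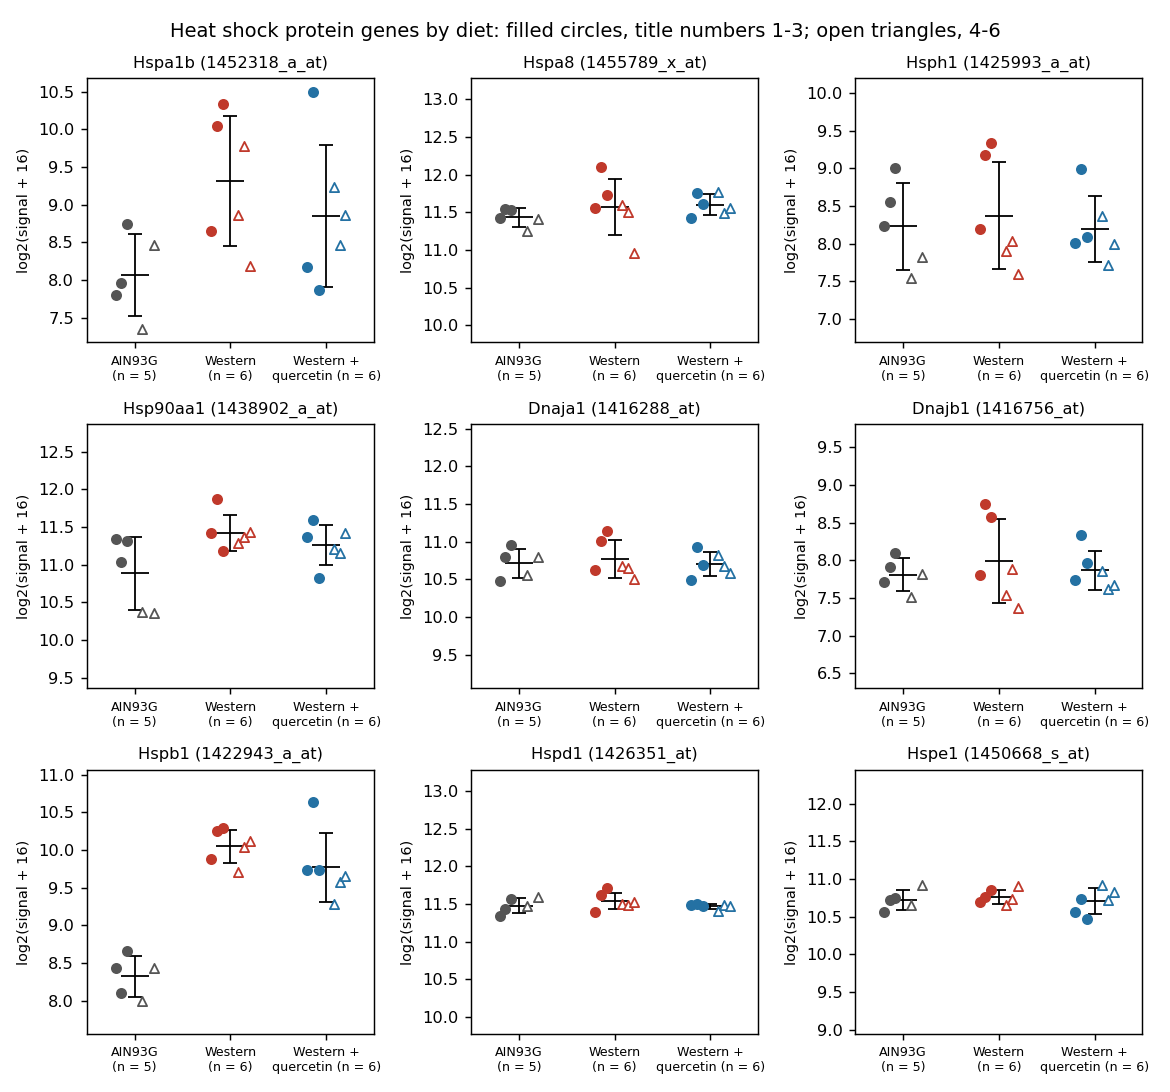
Levels, as log2(signal + 16), of the brightest probe set of each of the 9 genes in the 3 diet groups; each point is 1 sample, filled circles are title numbers 1 to 3, open triangles 4 to 6, and bars are the mean and SD over the 5 control, 6 Western or 6 quercetin samples. Every panel spans the same log2 range. Hspb1 is the gene whose control samples, at most 8.66, lie below all samples of both other groups, the lowest of which is at 9.29.

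Quercetin in the Western diet was not accompanied by a detected change in Hspb1. Quercetin minus Western was -0.28 for 1422943_a_at, with a 95% interval from -0.65 to 0.09, and -0.29 for 1425964_x_at, with an interval from -0.67 to 0.09. The intervals leave room for a fall of that size as well as for a small rise. Of the 23 member probe sets, 0 passed the test in this comparison and 0 had an unadjusted p under 0.05, while 0% of all probe sets passed (limma; 1105 of 33778 at an unadjusted p under 0.05).

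Markers of some other cell types also differed between the diets. Of 12 macrophage and Kupffer cell markers, 6 rose on the Western diet, among them Lyz2 and Cd68, and 6 did not pass the test. Their summed signal ran from 4741 to 5732 in control, from 7108 to 11960 in Western and from 5796 to 14940 in quercetin samples. Of 10 stellate cell markers, 5 rose and 5 did not pass, among the latter Lrat and Des. Their summed signal ran from 1959 to 2107 in control, from 2537 to 3440 in Western and from 2348 to 3938 in quercetin samples. No marker of either list was too dim to test. Over all probe sets 4.35% passed in Western against control. Of 10 endothelial markers 1 rose, and of 10 hepatocyte markers 1 fell. Among the markers tested, 0 passed of 3 for T cells, 5 for B cells, 4 for neutrophils and 4 for cholangiocytes. The 3 exocrine pancreas markers with a probe set had summed signals from 455.8 to 909.4 in control, 225.5 to 310.5 in Western and 186 to 274.4 in quercetin samples. Of these, Cela1 fell on the Western diet, by 1.31 (adjusted p = 0.000148), Prss2 was at -0.24 (adjusted p = 0.703), and Cpa1 was too dim to test. The part of these cells in the Hspb1 result was not tested.

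A measure of RNA integrity was set beside the diets as well. The Actb 3′ to 5′ log2 ratio was -0.09 in Western minus control (exact permutation test, two-sided p = 0.232) and -0.08 in quercetin minus control (p = 0.0996, exact permutation) after normalization, and -0.14 (p = 0.0325) and -0.13 (p = 0.0195) by the same test on the values as deposited or with medians centred. With the Actb ratio as deposited in the fit, Hspb1 still passed on both probe sets, at 1.63 and 2.07 in Western against control. The count over all probe sets went from 1468 to 207.

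Of the 23 member probe sets, the 2 of Hspb1 were the ones that passed the test in Western against control, where 4.35% of all probe sets passed (2.9% higher, 979 probe sets, and 1.45% lower, 489 probe sets). The same 2 probe sets passed in quercetin against control, where 2.85% of all did and 1.86% did as higher; the control samples are the same in both comparisons. In groups that did not overlap, the count was again these 2 probe sets in each comparison, against 4.72% and 3.3% of all probe sets. Between quercetin and Western, 0 member probe sets had groups that did not overlap, against 0.157% of all. At an unadjusted p under 0.05 the Western count was 9 of 23, made up of Hspb1, Hspa1b and Hsp90aa1, against 18.3% of all probe sets. The Western change was above 0 in 21 of the 23, with a median of 0.25, while the median over all probe sets was -0.011.

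**Figure D2:**
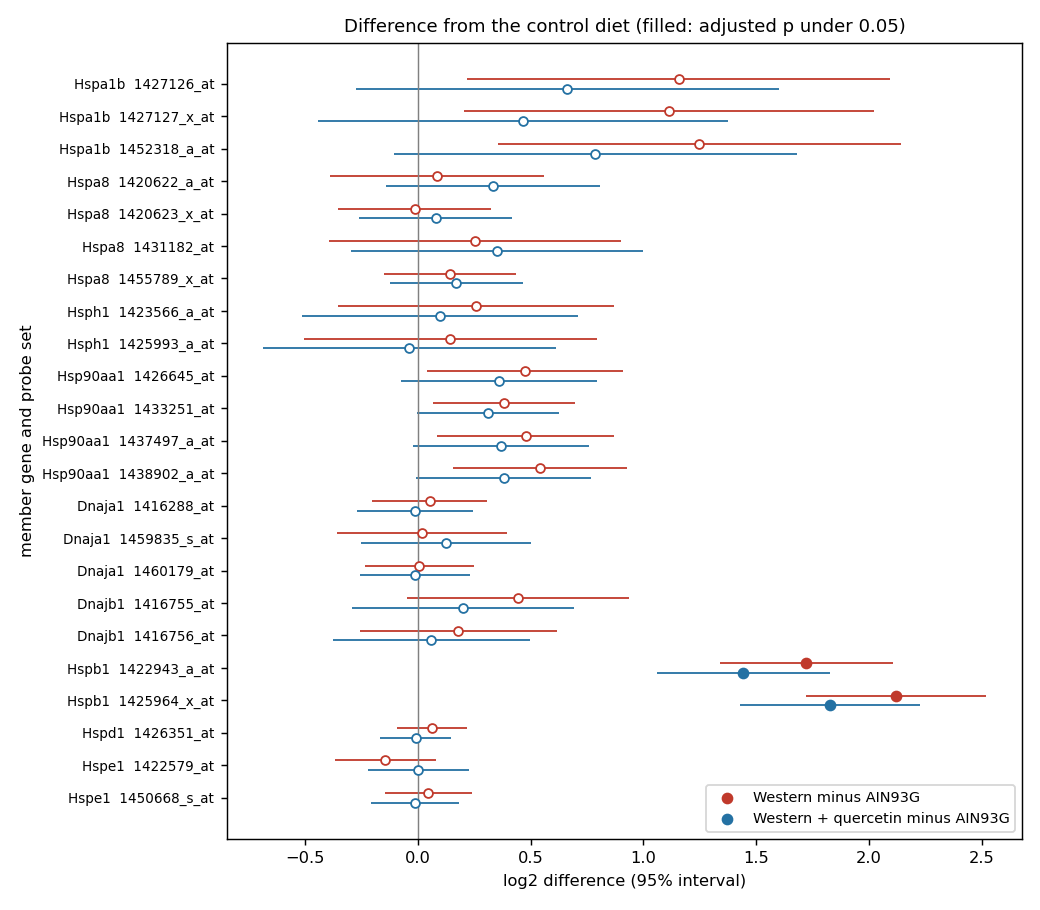
Log2 difference from the AIN93G group for each of the 23 member probe sets, for the Western group (red) and the Western diet with quercetin (blue), with 95% intervals; filled points have an adjusted p under 0.05 by limma. The filled points are the 2 probe sets of Hspb1, at 1.72 and 2.12 for Western, and the intervals of Hspa1b are the widest.

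Hspa1b, the stress-inducible cytosolic HSP70, had the next largest differences and a wide spread among mice of 1 diet. Its brightest probe set, 1452318_a_at, stood at 7.80 in control 1, 7.96 in control 2, 8.74 in control 3, 7.36 in control 4-5 and 8.47 in control 6. It ran from 8.18 to 10.33 in the Western group (median 9.32) and from 7.87 to 10.49 in the quercetin group (median 8.66). Quercetin 2, western 3 and western 2 were the highest samples, western 6 and quercetin 3 were the lowest of their groups, and all 3 groups overlapped. Within the quercetin group the highest sample was 6.15-fold above the lowest.

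The difference between Western and control was 1.25 ± 0.43 (log2, SE; n = 6 and 5) for 1452318_a_at, with an adjusted p of 0.11 by limma. It was 1.16 for 1427126_at and 1.11 for 1427127_x_at, with adjusted p-values of 0.163 and 0.165. None of the 3 passed on normalized values. On the values as deposited, where the median change of all probe sets was itself 0.18, all 3 passed, with changes from 1.39 to 1.51. With array medians centred, 1452318_a_at passed at 1.36 (adjusted p = 0.0482). Quercetin minus Western for this probe set was -0.46, with an interval from -1.31 to 0.39.

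The 3 Hspa1b probe sets followed each other closely over the samples, with correlations from 0.971 to 0.989 after the mean of each diet was removed (17 samples, a description). Hspa1a is so similar in sequence that array signal of the pair cannot be assigned with certainty. The brightest probe set paired with Hspa1a rose on the Western diet, by 1.35 with an adjusted p of 0.0363 by limma, and the same limit holds for it.

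Hsp90aa1, the inducible cytosolic HSP90, differed less between diets. On the brightest probe set, 1438902_a_at, control 1 stood at 11.34, control 2 at 11.03, control 3 at 11.31, control 4-5 at 10.38 and control 6 at 10.36. The Western samples ran from 11.18 to 11.87 (median 11.39) and the quercetin samples from 10.82 to 11.59 (median 11.29). Both control samples with high numbers were the lowest of all 17, while the other 3 controls lay among the samples of the other diets. Western minus control was 0.54 ± 0.18 (log2, SE), with an adjusted p of 0.108 by limma. It was 0.48 for both 1426645_at and 1437497_a_at, with adjusted p-values of 0.225 and 0.168. On the values as deposited these 3 probe sets passed, with differences from 0.70 to 0.74, and with array medians centred 1437497_a_at passed at 0.59 (adjusted p = 0.0368). With the number set as a term in the fit, 1426645_at passed at 0.53 and 1437497_a_at at 0.52 (adjusted p = 0.0457 and 0.0409). With the Actb ratio in the fit they were at 0.25 and 0.33 and did not pass (adjusted p = 0.722 and 0.572).

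The diet difference of Hsp90aa1 was also taken within each number set. On 1438902_a_at, within numbers 4 to 6 it was 0.99 (adjusted p = 0.0198; n = 3 Western and 2 control), and within numbers 1 to 3 it was 0.26 (adjusted p = 0.716; n = 3 and 3), both by limma. The difference between these 2 values was 0.73 ± 0.28 (SE), with an unadjusted p of 0.0193 and an adjusted p of 0.892, and so did not pass. No member passed this test of diet by number, which 1 of 33778 probe sets did (0.00296%), and 2 of 23 had an unadjusted p under 0.05, against 5.34% of all. For the effect of quercetin by number, 0 members passed and 1 had an unadjusted p under 0.05, against 5.07% of all. The probe set 1433251_at, at levels from 4.13 to 5.13, did not follow the other Hsp90aa1 probe sets, with correlations from -0.07 to -0.02 to the 3 brighter ones.

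No other member passed the test between diets. Western minus control was 0.14 for the brightest probe set of Hspa8, the constitutive HSP70, with an interval from -0.15 to 0.44. It was 0.14 for Hsph1, the HSP110 exchange factor, with an interval from -0.51 to 0.79, and 0.18 for Dnajb1, a J-domain partner induced by stress, with an interval from -0.26 to 0.62. The second probe sets of these genes gave 0.26 for Hsph1 1423566_a_at (interval -0.35 to 0.87) and 0.44 for Dnajb1 1416755_at (interval -0.05 to 0.94). For Dnaja1, a J-domain partner with a lipid anchor, it was 0.05, with an interval from -0.20 to 0.31. The intervals of Hsph1 and Dnajb1 leave room for rises of the size seen for Hsp90aa1.

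Both mitochondrial chaperonin genes lay within narrow ranges in every group. Hspd1 (1426351_at) stood at 11.35 in control 1, 11.44 in control 2, 11.56 in control 3, 11.47 in control 4-5 and 11.59 in control 6. It ran from 11.40 to 11.71 in the Western group (median 11.52) and from 11.40 to 11.50 in the quercetin group (median 11.48). The 3 groups lay on top of one another, and Western minus control was 0.06, with an interval from -0.10 to 0.22. For Hspe1 (1450668_s_at) it was 0.05, with an interval from -0.15 to 0.24, and on its second probe set, 1422579_at, -0.14, with an interval from -0.37 to 0.08. All 3 intervals leave out a change as large as that of Hspb1. The mitochondrial chaperone and protease list holds partners such as Trap1, the protease Lonp1 and the unfoldase subunit Clpx. Of its 11 genes 0 passed in Western against control.

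When title numbers 4 to 6 were compared with 1 to 3 across the diets, a different set of members stood out, and each was lower in 4 to 6. Of the 23 member probe sets, 4 passed, all lower: both of Hsph1, 1 of Hsp90aa1 and 1 of Hspa8. Over all probe sets 3.19% passed, of which 1.43% as lower and 1.76% as higher. At an unadjusted p under 0.05 the count was 11 of 23, against 17.5% of all probe sets. Among these 11, Dnaja1 1460179_at was higher in 4 to 6, by 0.18, and the others were lower. The difference was below 0 in 18 of the 23, with a median of -0.29, against a median of -0.0019 over all probe sets.

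Hsph1 had the largest of these differences. On 1425993_a_at the samples with numbers 1 to 3 ran from 8.0 to 9.34 with a median of 8.55, and those with numbers 4 to 6 from 7.55 to 8.36 with a median of 7.86. Western 3, western 2, control 3 and quercetin 2 were the highest samples, all with low numbers, and control 4-5 and western 6 were the lowest; the ranges overlapped. The difference, with diet in the fit, was -0.76 ± 0.19 (log2, SE; n = 8 and 9), with an adjusted p of 0.032 by limma, and -0.73 ± 0.17 for 1423566_a_at, with an adjusted p of 0.0268. Within the diets the difference on 1425993_a_at was -0.91 in control, -1.06 in Western and -0.33 in quercetin, where no single diet passed.

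For Hsp90aa1, 1426645_at ran from 9.53 to 10.48 in numbers 1 to 3 (median 9.77) and from 8.75 to 9.79 in numbers 4 to 6 (median 9.47). The high end was again western 3, quercetin 2 and western 2, and the low end control 4-5 and control 6. The difference was -0.52 ± 0.12 (log2, SE), with an adjusted p of 0.0243 by limma. It was -0.43 for 1437497_a_at, with an adjusted p of 0.0503, and -0.29 for 1438902_a_at, with an adjusted p of 0.273.

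Hspa8 passed on 1 of its 4 probe sets. The level of 1420623_x_at ran from 11.48 to 11.94 in numbers 1 to 3 (median 11.60) and from 10.79 to 11.62 in numbers 4 to 6 (median 11.30). Western 6 was the lowest sample by a wide margin, and the ranges overlapped. The difference was -0.37 ± 0.10 (log2, SE), with an adjusted p of 0.0496 by limma, at the edge of the threshold, and -0.20 for the brightest probe set, with an adjusted p of 0.337. The probe set 1431182_at went its own way, with correlations from -0.26 to -0.03 to the other 3. For Dnajb1 the difference was -0.45 on 1416756_at (adjusted p = 0.0772), and for Hspb1 it was -0.31 and -0.36 (adjusted p = 0.228 and 0.158).

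These calls rested on few samples. Without control 4-5, or without quercetin 2, 0 member probe sets passed, and leaving out each of the 17 samples in turn gave from 0 to 5. The count was 1 without control 6, western 3 or western 6, and 2 without control 3, western 2, western 4, western 5 or quercetin 5. Of the 17 such fits, Hsph1 1425993_a_at did not pass in 10, its 1423566_a_at in 5, Hspa8 1420623_x_at in 14 and Hsp90aa1 1426645_at in 2. After normalization, the 3′ to 5′ Actb ratio was higher by 0.10 in numbers 4 to 6 (exact permutation test within diets, two-sided p = 0.039). On the values as deposited it was higher by 0.0546 (p = 0.183, exact permutation), and this deposited ratio was the one put into the fit. With it in the fit 0 members passed, and the differences were -0.66 for Hsph1 1425993_a_at and -0.50 for Hsp90aa1 1426645_at. For Gapdh the ratio after normalization differed by -0.03 (p = 0.273, exact permutation). Of the 12 macrophage markers 0 passed between number sets and 11 lay below 0, with summed signals from 5238 to 14940 in numbers 1 to 3 and from 4741 to 9854 in numbers 4 to 6. The part of RNA integrity beyond that fit, and of these cells, was not tested.

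**Figure D3:**
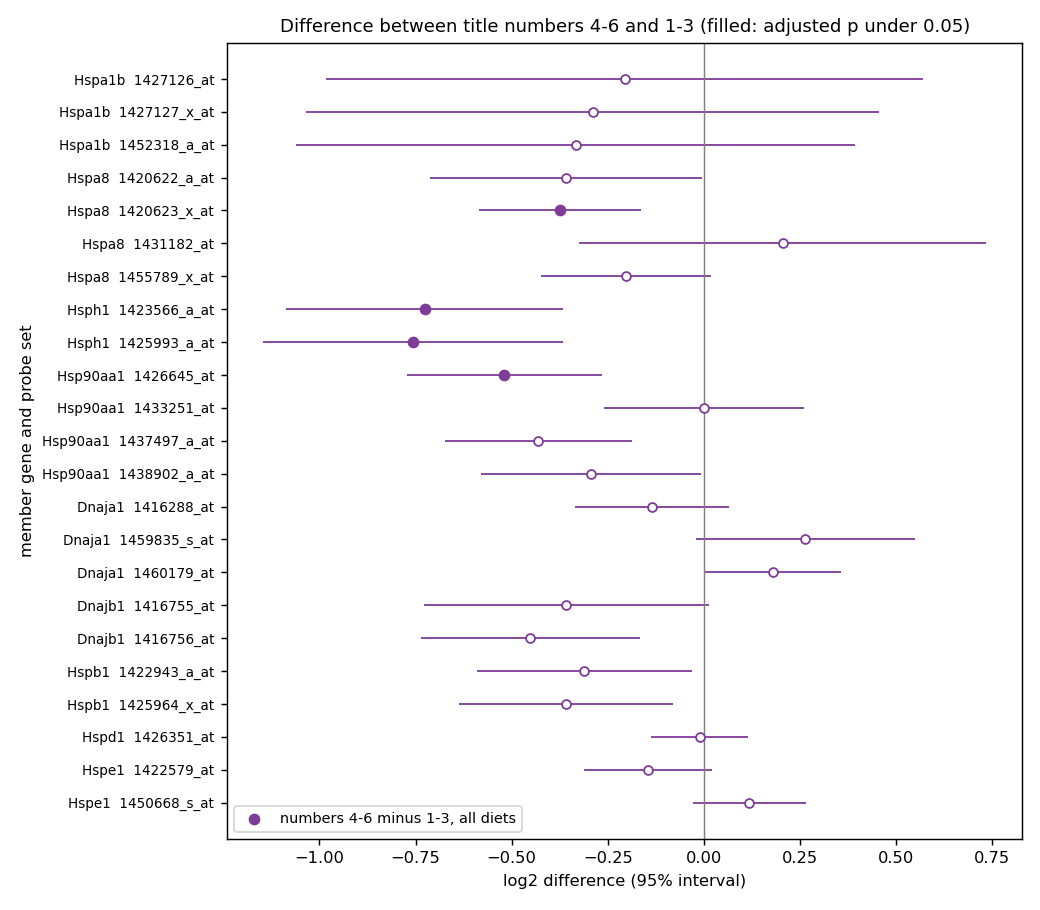
Log2 difference between title numbers 4 to 6 and 1 to 3, with diet in the fit, for each of the 23 member probe sets, with 95% intervals (8 and 9 samples); filled points have an adjusted p under 0.05 by limma. The filled points, all below 0, are 2 probe sets of Hsph1 and 1 each of Hsp90aa1 and Hspa8, and Hspd1 lies at -0.01.

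No probe set of Dnaja1, Hspd1 or Hspe1 passed between number sets. Hspd1 differed by -0.01 (interval -0.14 to 0.11) and Hspe1 by 0.12 on 1450668_s_at (interval -0.03 to 0.27). The other Hspe1 probe set, 1422579_at, lay the opposite way, at -0.15 (interval -0.31 to 0.02), and the 2 correlated at -0.10 over the samples. The Dnaja1 probe sets disagreed in sign: -0.13 on 1416288_at, 0.26 on 1459835_s_at and 0.18 on 1460179_at, none of which passed. The correlation of 1416288_at and 1459835_s_at over the samples was -0.16, so a single Dnaja1 level cannot be read from this array.

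Within a diet, several members, each read on its brightest probe set, were high in the same few mice. With each diet's mean removed, western 3 was among the 3 highest samples for 7 of the 9 genes, western 2 for 6, and control 3 and quercetin 2 for 4 each. Control 4-5 was among the 3 lowest for 6 genes and western 6 for 5. The 4 samples that led were all numbered 2 or 3, but not every sample with these numbers was high. Control 2 was among the 3 highest for 0 genes. Quercetin 3 was among the 3 highest for 0 genes and among the 3 lowest for 3. Over the 17 samples, Hsph1, Dnajb1, Dnaja1, Hspa8 and Hspa1b correlated with one another at 0.663 (Hspa1b and Hspa8) to 0.92 (Hsph1 and Dnajb1). Dnaja1 was read on 1416288_at, which stood at 0.34 with 1460179_at and at -0.16 with 1459835_s_at. Hsp90aa1, read on 1438902_a_at, followed the other cytosolic genes less closely, at 0.121 with Dnaja1 to 0.523 with Hsph1. That probe set stood at 0.579 with 1426645_at and 0.704 with 1437497_a_at, which correlated with each other at 0.959. Hspb1 stood at 0.215 with Hspa8 to 0.638 with Hspa1b. Mitochondrial Hspd1 stood at 0.68 with Dnaja1 and 0.549 with Dnajb1, and at -0.17 with Hsp90aa1, the lowest of the 36 pairs. These correlations are descriptions, and the points share arrays and scaling.

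**Figure D4:**
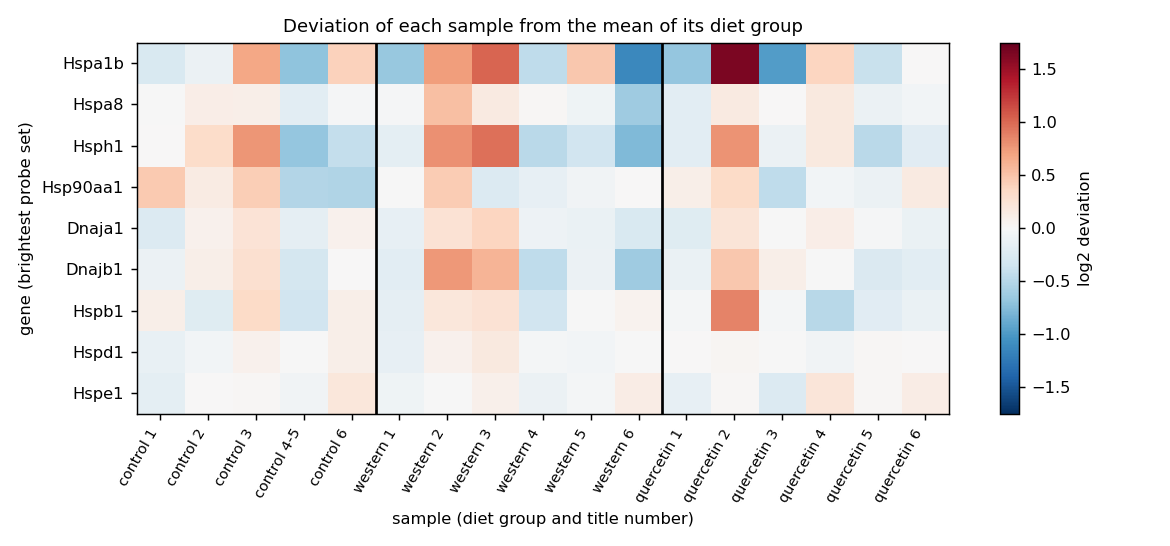
Deviation of each of 17 samples from the mean level of its diet group, in log2 units, for the brightest probe set of the 9 genes; red is above and blue below the mean, and vertical lines separate the diets. Western 2, western 3, control 3 and quercetin 2 are red for several cytosolic genes, while the rows of Hspd1 and Hspe1 stay pale. Hsp90aa1 is an exception in western 3 on the probe set shown, 1438902_a_at, at 11.18 against a Western mean of 11.43. On 1426645_at and 1437497_a_at western 3 lay above the Western mean, at 10.48 against 9.86 and at 10.27 against 9.84.

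Genes outside the members that followed their mean deviation most closely over the 17 samples were sought among 14961 genes. The 3 highest correlations were those of Uspl1 (0.901), Hspa4l, an HSP110 family member (0.898), and P4ha1, a collagen prolyl hydroxylase (0.896), ahead of Arfip2, Hnrnpc, Bag3, Micalcl and Palld, at 0.814 or more. Bag3, a co-chaperone that links HSP70 to small heat shock proteins, stood at 0.822. The lowest were Ank3 (-0.849), Seh1l, Zc3h6 and Zfp763 (-0.835). Picked as the extremes of a search over 14961 genes in 17 samples, these genes are a description with no test. Among the members themselves, the correlation with this mean ran from 0.343 for Hspe1 to 0.917 for Hsph1, and each member is part of the mean.

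The wider chaperone network was read from lists of its gene families, each gene by its brightest probe set. On the Western diet 1 of the 8 other HSP70 and HSP110 genes tested rose, Hspa1a, whose signal may include that of Hspa1b. Of 15 endoplasmic reticulum chaperones 1 rose, the collagen chaperone Serpinh1, by 0.70 (adjusted p = 0.0327). Of 19 co-chaperones of HSP70 and HSP90, 16 other J-domain genes, 13 TRiC chaperonin and prefoldin genes, 7 other small heat shock genes and 5 regulators tested, 0 passed in that comparison. Of 14 immediate early genes 1 rose, Ier3, by 0.69 (adjusted p = 0.0359), and the median of the list was 0.30. Members of the small heat shock family other than Hspb1 lay close to 0, with a list median of -0.04 and Hspb8 at -0.14.

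Between number sets the endoplasmic reticulum chaperones held the most calls of the chaperone lists. Of the 15 endoplasmic reticulum chaperones 6 fell in numbers 4 to 6, and all 15 lay below 0. Over all probe sets 1.43% passed as lower and 3.19% in either direction. The list counts 1 probe set per gene, while these shares count every tested probe set. The other chaperone lists held 0 to 2 calls each. The stress factors Manf and Creld2 fell by 1.06 each, the HSP70 of this compartment, Hspa5 (BiP), by 0.76 and its J-domain partner Dnajb9 by 0.52, with adjusted p-values of 0.000167, 0.00228, 0.00228 and 0.0125. Among cytosolic partners, the HSP70-HSP90 adaptor Stip1 fell by 0.42 and the HSP90 partner Chordc1 by 0.50 (adjusted p = 0.0301 and 0.0222), 2 of 19 co-chaperones. Hspa13 fell by 0.57, 1 of 8 other HSP70 and HSP110 genes, while Dnajb6 rose by 0.46, 1 of 16 other J-domain genes. The mitochondrial unfoldase subunit Clpx fell by 0.87, 1 of 11, and the chaperonin subunit Cct3 by 0.21, 1 of 13.

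Clock genes and a cold-inducible gene also differed between number sets. Of 17 circadian genes 6 rose and 3 fell in numbers 4 to 6. Ciart rose by 1.57, Hlf by 0.65 and Tef by 0.65, while the activator Npas2 fell by 0.64, with adjusted p-values of 0.00228, 0.000294, 0.00638 and 0.00492. Cirbp, an RNA-binding protein that rises as temperature falls, was higher by 0.69 (adjusted p = 0.00668). It was 1 of 5 genes tested in the list of heat shock factors and cold-inducible regulators. The other 4 did not pass, and 2 of the 5 lay below 0. In Western against control 0 of the 17 circadian genes passed. The labels give no time of collection, and the part of clock phase in the members' difference was not tested. Of 14 immediate early genes 0 passed between number sets.

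**Figure D5:**
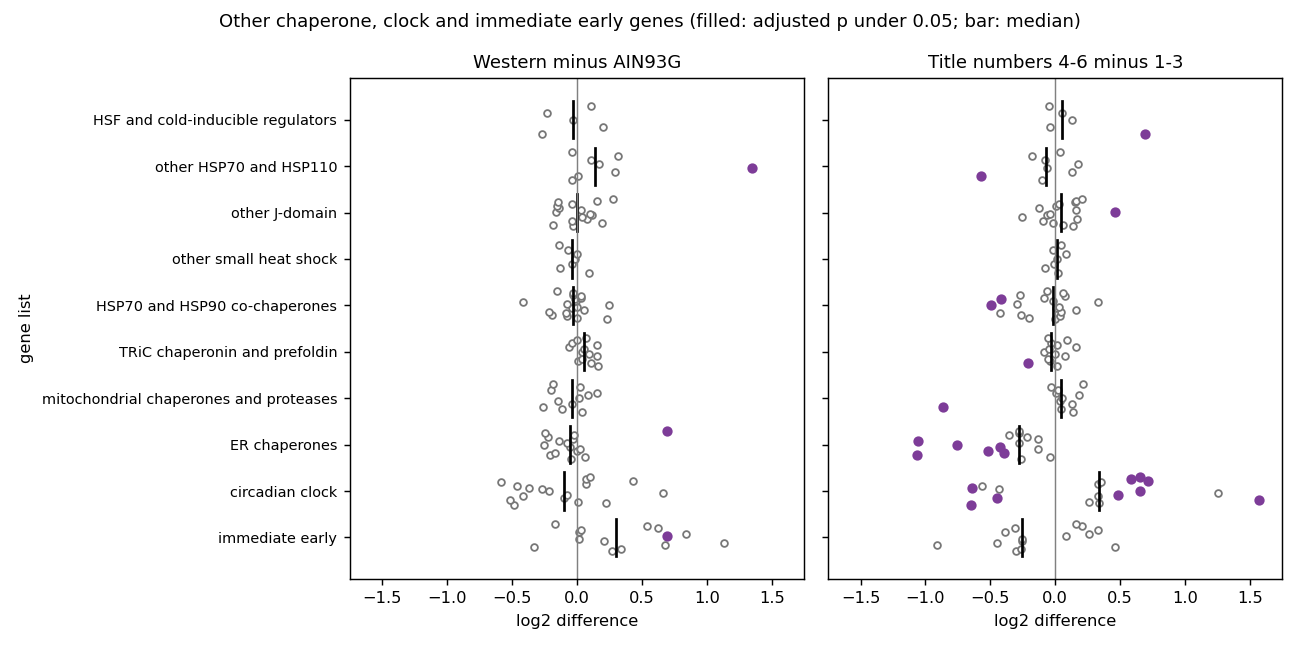
Log2 differences of the genes of 10 lists outside the members, each by its brightest probe set, for Western minus AIN93G (left) and for title numbers 4 to 6 minus 1 to 3 (right); filled points have an adjusted p under 0.05 by limma and bars are list medians. On the right the endoplasmic reticulum chaperones all lie below 0 with 6 filled, and on the left 3 points in all are filled, Hspa1a, Serpinh1 and Ier3.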

How the data were processed

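The deposited values were intensity values on a linear scale, 1 per probe set of Mouse430_2 arrays, per the labels hybridised with biotin-labelled cRNA of 1 mouse each; the summary method and scaling of the authors were not given in the sources used here. All 64 control probe sets were left out, log2(value + 16) was quantile normalized, and the 33778 of 45037 probe sets at or above the 25 percentile of means were tested with limma 3.58.1 (R 4.3.3; lmFit and eBayes, Benjamini-Hochberg over all of them, threshold 0.05). Diet comparisons used all 17 samples; the number sets were compared with diet in the fit, and the difference of differences over 6 cells. Annotation gave 1 symbol for 34945 probe sets, several for 932 and none for 9160. Each gene was named by rule: every probe set of the members and, per list, up to 4 genes of smallest p between number sets and 3 between Western and control. Members and lists were chosen with earlier results of these data known. On simulated data the fit recovered 47 of 100 probe sets changed by 0.5 and 95 of 100 changed by 1 (log2) in Western against control. Array number limits precision. Alternatives were other scalings, pseudocounts, filters, blocks, subsets and samples left out.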

Additional observations from a re-analysis of the deposited data

Results flagged for a closer look

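Among 69 groups of 5 or 6 samples, 1 sample stood far from the rest of its group in 5; chance alone marks about 1 group in 20. The quercetin 2 sample was high for Hspb1 on both probe sets, at 10.63 on 1422943_a_at, where the next sample was at 9.74, and at 10.21 on 1425964_x_at, where the next was at 9.25. The western 2 sample was high for Hsp90aa1 on 1438902_a_at, at 11.87, with the next at 11.43. The western 6 sample was low on the dim Hsp90aa1 probe set 1433251_at, at 4.14, with the next at 4.67. The quercetin 4 sample was low for Hspd1, at 11.40, but the whole group spanned 11.40 to 11.50.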

How the results depend on the processing

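The rise of Hspb1 on the Western diet kept its direction and passed under every alternative run; over the samples left out it ran from 1.64 to 1.81 and from 1.98 to 2.20. In quercetin against control, 1422943_a_at did not pass within numbers 4 to 6 (1.29, adjusted p = 0.0637). Member probe sets that passed in Western against control numbered 9 as deposited, 4 with array medians centred or with either block, 1 with the brightest probe set per gene or without _x_at and _s_at probe sets, and 2 to 3 with a sample left out. Title numbers were not taken as pairs, since not every same-number pair of samples correlated above 0.1. Of 18 such pairs 12 did (median 0.108, from -0.222 to 0.301). The same held for 8 of 30 pairs of other numbers in the same set (median 0.0485) and 1 of 48 across sets (median -0.08). Same-number pairs had the highest median, so this bar does not show that pairing was absent. With a replicate block for each title number or for the number set, Hsp90aa1 1426645_at and 1437497_a_at passed beside Hspb1, which made 4. In quercetin against control the members were 4 as deposited, 1 with the brightest probe set or without _x_at and _s_at, and 2 with any sample left out. Between number sets they were 2 with medians centred, 1 with a pseudocount of 1 or the brightest probe set, 0 with the Actb ratio or within any one diet, and 0 to 5 with a sample left out. Within single groups Hsp90aa1 1438902_a_at (0.0024, quercetin) and Dnaja1 1460179_at (-0.0223, Western) turned sign. All probe sets that passed in Western against control numbered 5736 (5590 higher) as deposited, 207 with the Actb ratio, 64 within numbers 1 to 3, 218 within 4 to 6, and 847 to 1800 with a sample left out. In quercetin against control they were 5357, 149, 261 and 24 in that order, 556 with those groups alone, and 554 to 1267 with a sample left out. Between number sets they were 619 as deposited, 1669 with a pseudocount of 64, 1663 with control arrays 4 and 5 apart, 6, 0 and 13 within control, Western and quercetin, and 636 to 1240. Quercetin against Western gave 0 to 1. Diet by number gave 0 as deposited, with medians centred, a pseudocount of 1, no filter or the Actb ratio, and 0 to 2 with a sample left out; quercetin by number gave 3 with an intensity trend and 0 to 3. The Actb difference was 0.0546 (p = 0.183, exact permutation) as deposited and centred, and the Gapdh one 0.0101 under both. The cause was not tested.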
